A study of Homo sapiens with 9 samples.

Results

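The AP-1 and immediate-early transcription factors described here are 10 genes, JUN, JUNB, JUND, FOS, FOSB, FOSL1, FOSL2, ATF3, MAFF and EGR1. They are the entries of a table of 24542 genes and loci whose Ensembl identifier carries one of these symbols. All 10 were found, and all 10 were among the 15558 genes with enough counts to be tested. RNA was sequenced from A2780 cells, a wild-type line from a human ovarian carcinoma, and every library was made after 96 h. Of the 9 libraries, 3 came from cells given 5.5 µM Pt-ttpy, 3 from cells given 0.6 µM cisplatin and 3 from untreated cells in 0.5% DMSO. Both drugs were given at the concentration that the labels name as their IC80, so the molar doses differ while the labelled toxicity is matched. Cisplatin, written Cispt in the labels, is a platinum drug that forms crosslinks in DNA, and Pt-ttpy is described in the study's title as a platinum complex that binds G-quadruplexes. The labels call the 3 libraries of a group biological replicates without saying how the cultures were separated, so the p-values measure the spread between these libraries.

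AP-1 is a family of dimers that bind DNA through a basic leucine zipper (bZIP), a DNA-contacting basic stretch followed by a coiled coil. JUN proteins can pair with each other or with FOS proteins, whereas FOS proteins bind DNA only with a partner, and ATF3 and the small MAF protein MAFF form dimers of related type. FOS, FOSB, JUN, JUNB, EGR1 and ATF3 are classical immediate-early genes, switched on within minutes to hours of growth factor or stress signals through MAP kinases, without new protein synthesis. Levels measured 96 h into a treatment are therefore late levels, long after any first wave. In cells that take up cisplatin, the stress kinase JNK and its substrate JUN are well-described responders.

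The sequences before the annotated starts of these genes were searched for short motifs, and some are shown with the matches found. RefSeq promoter windows on GRCh38.p14 held 9 of the 10 genes in 11 windows, since ATF3 and MAFF have 2 annotated starts each, and FOSL1 had no entry. The 250 bases before each start were searched on both strands, and positions are given in bases before the start. In GENCODE 29, exons of the same gene lie inside the windows of JUN, FOS, FOSB, FOSL2 and MAFF and the first ATF3 window. Bases before a RefSeq start can therefore be annotated transcribed sequence in these genes. The CArG box, which the serum response factor SRF binds, lay in the EGR1 window alone among these genes, at 105 to 96 and at 83 to 74, and it occurred in 1.16% of all 35116 windows. In the EGR1 window, on the plus strand at chr5:138465229-138465478, capitals mark in order an EGR site and the 2 CArG boxes.
EGR1: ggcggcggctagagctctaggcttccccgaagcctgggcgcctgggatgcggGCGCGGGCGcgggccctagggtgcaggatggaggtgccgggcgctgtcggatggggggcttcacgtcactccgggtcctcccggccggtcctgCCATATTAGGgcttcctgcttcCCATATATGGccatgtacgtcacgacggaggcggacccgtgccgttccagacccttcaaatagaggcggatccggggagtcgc
The EGR site, GCGNGGGCG, which EGR1 protein binds, was in 8.41% of all windows and overlapped a G-quadruplex pattern in the EGR1 window. The JUNB window, on the plus strand at chr19:12791236-12791485, held a TATA box (TATAAA) at 31 to 26, in capitals, and no other element searched.
JUNB: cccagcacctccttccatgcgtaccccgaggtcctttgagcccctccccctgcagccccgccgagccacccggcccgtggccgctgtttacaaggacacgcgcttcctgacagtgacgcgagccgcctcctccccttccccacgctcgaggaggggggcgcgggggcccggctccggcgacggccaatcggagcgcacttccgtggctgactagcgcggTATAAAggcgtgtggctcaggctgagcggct

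A TATA box also lay before the starts of FOS, at 33 to 28, and FOSB, at 30 to 25, against 10.7% of all windows. The same letters lay further off, at 230 to 225, in the second ATF3 window. That window, chr1:212614768-212615017, lies inside the annotated span of the gene. The cAMP-response type of site, TGACNTCA, which ATF, CREB and AP-1 dimers bind, lay in the windows of JUN, JUND, ATF3 and MAFF, against 6.87% of all windows. These 4 sites are shown in capitals in 30 bases of the coding strand, at chr1:58784096-58784125 (minus strand) for JUN, chr19:18281804-18281833 (minus strand) for JUND, chr1:212565273-212565302 (plus strand) for ATF3 and chr22:38201929-38201958 (plus strand) for MAFF.
JUN: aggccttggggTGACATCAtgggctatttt
JUND: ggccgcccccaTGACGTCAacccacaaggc
ATF3: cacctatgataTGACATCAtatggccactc
MAFF: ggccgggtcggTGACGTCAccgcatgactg
The canonical AP-1 site, TGANTCA, was in 6.57% of all windows and in none of the 11. A G-quadruplex pattern, 4 runs of at least 3 guanines with 1 to 7 bases between them, lay in the windows of FOSL2, MAFF and EGR1, against 23.3% of all windows. These matches describe letters in a fixed window and were not tested for binding. Elements further upstream, or with letters other than those searched, would be missed. A window without a match therefore does not show that the gene lacks that control.

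**Figure D1:**
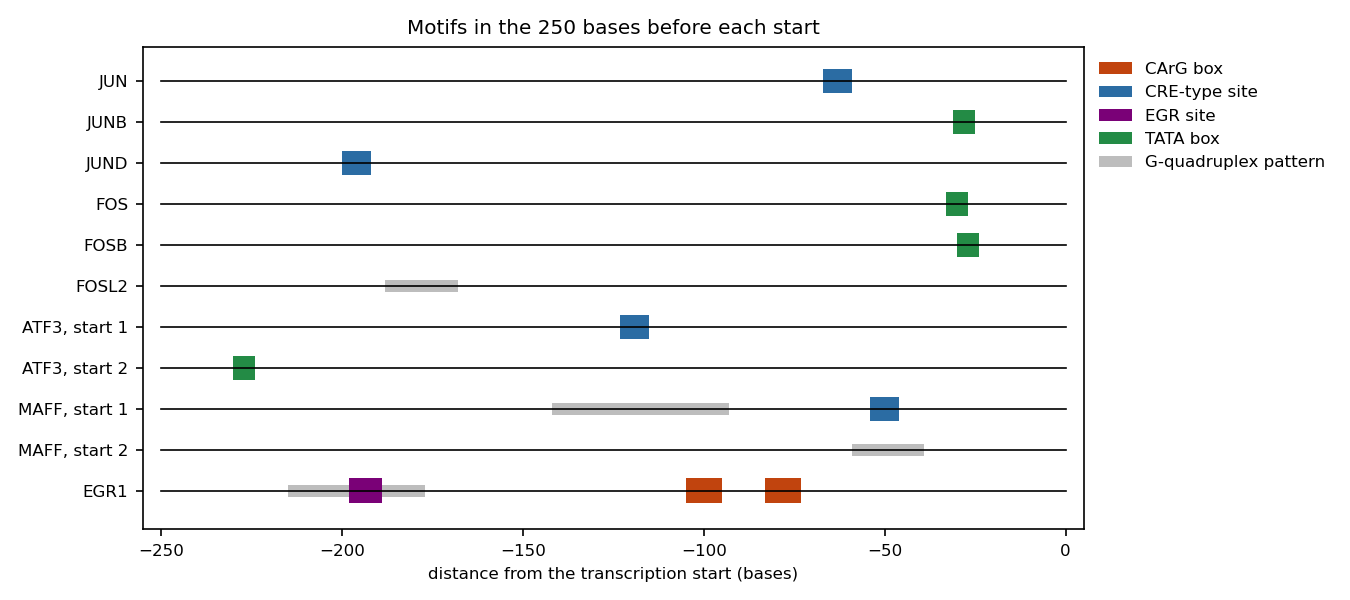
Elements found in the 250 bases before each RefSeq start (x axis, distance from the start in bases), with coloured blocks for motifs and a line for each window. Within these windows, EGR1 alone has CArG boxes, and JUN, JUND, ATF3 and MAFF have a cAMP-response type of site. Bases further upstream were not searched.

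The libraries held 31.3 to 40.8 M counts each. Library DMSO 2 and library cisplatin 2 stood apart, because their gene levels, relative to the mean over libraries, increased with transcript GC content (Spearman rho 0.52 and 0.42) while the other 7 libraries had rho between -0.34 and -0.17. Results are therefore also given without these libraries where that changes a call. The cells carried few carcinoma markers: of 10 epithelial and ovarian markers only CLDN4 reached a mean of 1 CPM (counts scaled to a common library total, per M), and PAX8, MUC16 and WT1 were near 0. Of 6 fibroblast and mesothelial markers, 5 reached 1 CPM, with sums of 866 to 942 CPM in Pt-ttpy, 664 to 834 in cisplatin and 452 to 573 in DMSO. The epithelial sums were 2.80 to 4.29 CPM in Pt-ttpy, 6.28 to 12.7 in cisplatin and 2.10 to 2.92 in DMSO. The fibroblast and mesothelial sums thus lay above DMSO under both drugs. The epithelial sums lay above DMSO with cisplatin and overlapped DMSO with Pt-ttpy. The part of both lists in the results below was not tested. In bulk RNA a change in the number of cells of a kind and a change in RNA per cell cannot be told apart.

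In the FOS family, FOSL1, which encodes the transactivation-domain-poor AP-1 subunit FRA-1, was the member with the clearest change: it rose strongly with cisplatin and slightly with Pt-ttpy, and the gap between the drugs was itself called. FOSL1 (ENSG00000175592, chr11:65892049-65900573, minus strand, with all gene positions from GENCODE 29 on GRCh38) had 7.05, 8.09 and 7.11 CPM in the Pt-ttpy libraries, 25.6, 26.6 and 19.5 CPM in the cisplatin libraries and 5.18, 4.90 and 4.54 CPM in the DMSO libraries. All 3 cisplatin libraries lay above all 3 Pt-ttpy libraries, and these lay above all 3 DMSO libraries. Means were 7.42 ± 0.585 CPM in Pt-ttpy, 23.9 ± 3.86 in cisplatin and 4.87 ± 0.318 in DMSO (SD, n = 3 each). The cisplatin to DMSO ratio was 4.90 (log2 change 2.29, SE 0.17, adjusted p = 1.61e-05), rank 9 by p among the 15558 genes. The Pt-ttpy to cisplatin ratio was 0.311 (log2 change -1.69, SE 0.16, adjusted p = 0.000605), with rank 4 by p. Both calls held in all 9 fits that leave out a library and under all 13 other settings tried.

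The smaller FOSL1 rise with Pt-ttpy, 1.52-fold (log2 change 0.61, SE 0.17, adjusted p = 0.0355), was less firm. It was called in 2 of 9 fits with a library left out, and was lost without any DMSO or Pt-ttpy library or without cisplatin 1, where adjusted p ranged up to 0.137. It was also lost with limma-voom (adjusted p = 0.0798). Its size stayed between log2 0.54 and 0.65 in those fits.

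FOS, the founding immediate-early gene and an obligate partner of JUN proteins, was lower in every drug library than in every DMSO library, but neither change passed the test. FOS (ENSG00000170345, chr14:75278774-75282230, plus strand) had 6.92, 5.05 and 3.79 CPM with Pt-ttpy, 8.11, 2.18 and 4.51 CPM with cisplatin and 10.9, 9.91 and 8.86 CPM with DMSO. The log2 change was -0.91 for Pt-ttpy against DMSO (SE 0.38, adjusted p = 0.13) and -1.01 for cisplatin against DMSO (SE 0.38, adjusted p = 0.078). The call depended on the libraries and on the method. Pt-ttpy against DMSO reached adjusted p = 0.0316 without cisplatin 2 and 0.0274 without DMSO 2 and cisplatin 2 together, and cisplatin against DMSO reached 0.0143 without cisplatin 1. With all 9 libraries, cisplatin against DMSO passed with limma-voom (log2 change -1.26, adjusted p = 0.0295) and with DESeq2's Wald test (log2 change -1.0, adjusted p = 0.0303). Pt-ttpy and cisplatin libraries overlapped (log2 difference 0.10, 95% interval -0.73 to 0.93, adjusted p = 0.961).

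FOSL2 was called lower with cisplatin, and FOSB passed the test in neither comparison. FOSL2, which encodes the late-acting subunit FRA-2 (ENSG00000075426, chr2:28392448-28417312, plus strand), had 10.6, 10.6 and 10.1 CPM with Pt-ttpy, 8.73, 5.66 and 9.40 CPM with cisplatin and 12.2, 10.8 and 12.9 CPM with DMSO. All cisplatin libraries lay below all Pt-ttpy libraries, and these lay just below all DMSO libraries. FOSL2 fell with cisplatin (log2 change -0.60, SE 0.19, adjusted p = 0.0467) and was not called with Pt-ttpy (log2 change -0.21, SE 0.19, adjusted p = 0.511). The cisplatin call stood at the edge of the threshold: it remained in 1 of 9 fits with a library left out, the fit without cisplatin 3, and without any of the other 8 libraries adjusted p lay between 0.0501 and 0.133. The call held without DMSO 2 and cisplatin 2 together (log2 change -0.47, adjusted p = 0.0274). With all 9 libraries it was lost with upper-quartile factors (adjusted p = 0.0692), library totals (adjusted p = 0.0756) and a GC correction (adjusted p = 0.0584). It was also lost in a fit of the 6 cisplatin and DMSO libraries alone (adjusted p = 0.119).

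FOSB, a further FOS paralog (ENSG00000125740, chr19:45467995-45475179, plus strand), had 7.29, 6.51 and 6.73 CPM with Pt-ttpy, 14.3, 5.83 and 9.75 CPM with cisplatin and 5.74, 6.81 and 4.99 CPM with DMSO. Library cisplatin 1 was the highest and cisplatin 2 lay inside the DMSO range. The log2 change was 0.23 for Pt-ttpy against DMSO (SE 0.28, adjusted p = 0.624) and 0.77 for cisplatin against DMSO (SE 0.28, adjusted p = 0.0681), and neither passed. Without cisplatin 2 the cisplatin value was 1.04 (adjusted p = 0.0101). Without DMSO 2 and cisplatin 2 together it was 1.17 (adjusted p = 0.000312), with a Pt-ttpy to cisplatin difference of -0.82 (adjusted p = 0.0117). With all 9 libraries, cisplatin against DMSO passed with library totals (adjusted p = 0.0449), DESeq2's Wald test (adjusted p = 0.0304) and a GC correction (adjusted p = 0.0402). It did not pass with limma-voom (adjusted p = 0.131).

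**Figure D2:**
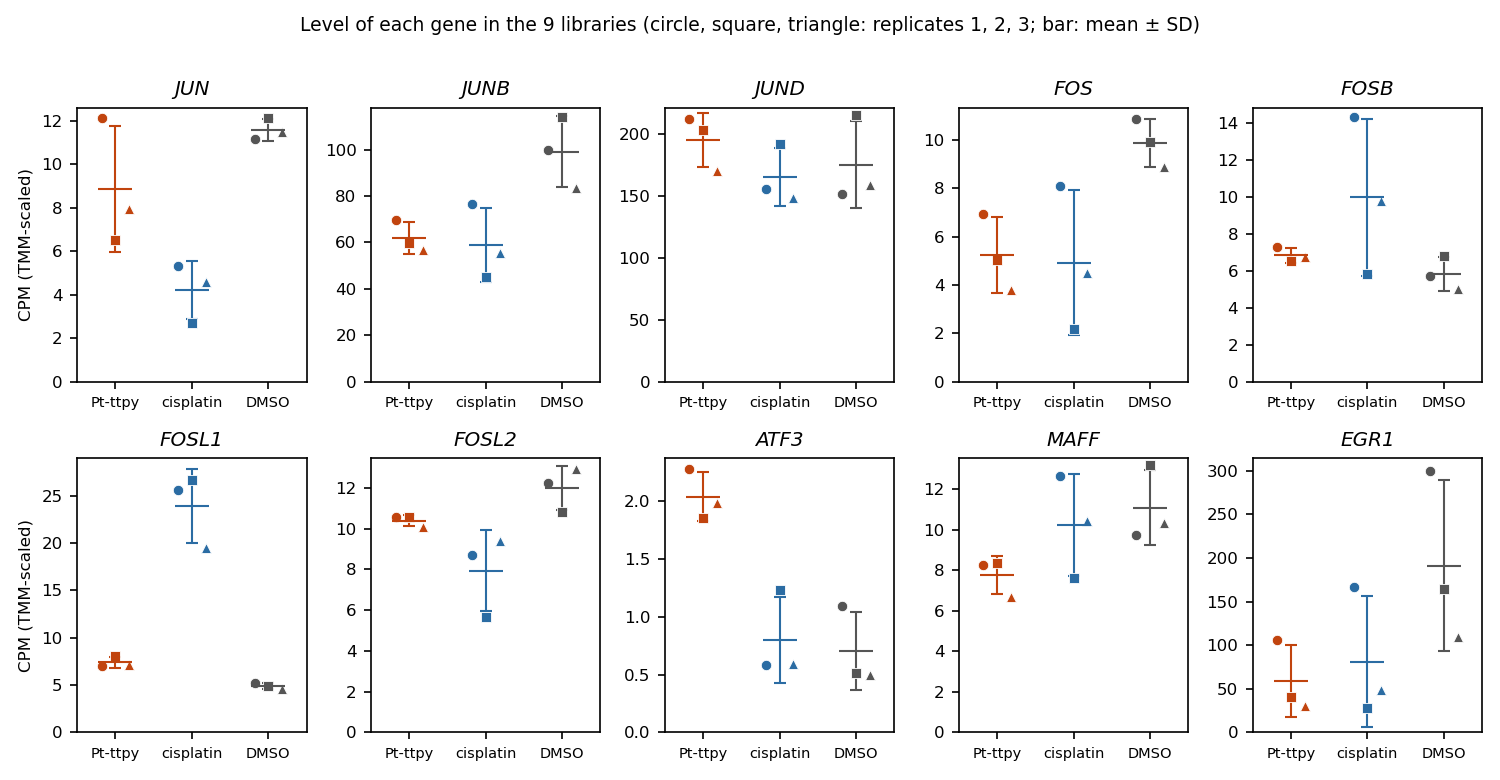
CPM of each of the 10 genes (y axes, from 0) in the Pt-ttpy, cisplatin and DMSO libraries, with replicates as symbols and mean ± SD as bars. FOSL1 sits at 19.5 to 26.6 CPM in the cisplatin libraries, apart from all others, while EGR1 spreads widely within every group.

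The make-up of the FOS family pool differed between the groups. With levels divided by exon length, FOSL1 made up 47.8 ± 4.08% of the summed FOS family CPM per kb in Pt-ttpy, 74.3 ± 9.17% in cisplatin and 30.9 ± 0.183% in DMSO (SD, n = 3 each). FOS made up 19.5 ± 4.71% in Pt-ttpy, 8.69 ± 4.32% in cisplatin and 36.4 ± 1.54% in DMSO, so that FOS held the largest mean share in DMSO and FOSL1 held it under both drugs. The summed level was 8.24 ± 0.594 CPM per kb in Pt-ttpy, 17.1 ± 2.58 in cisplatin and 8.36 ± 0.497 in DMSO. The Pt-ttpy pool thus had the size of the DMSO pool within the replicate spread, with another composition. These shares are descriptions of the same counts and were not tested apart from the genes themselves.

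In the JUN family, JUNB was lower under both drugs and JUN itself was called lower with cisplatin. JUN (ENSG00000177606, chr1:58780788-58784327, minus strand), the strongest activator of the family and a substrate of JNK, had 12.1, 6.54 and 7.94 CPM with Pt-ttpy, 5.31, 2.72 and 4.60 CPM with cisplatin and 11.1, 12.1 and 11.5 CPM with DMSO. Every cisplatin library lay below every library of the other groups, and Pt-ttpy 1 was as high as the DMSO libraries. JUN fell to 4.21 ± 1.34 CPM in cisplatin, against 11.6 ± 0.495 CPM in DMSO (SD, n = 3 each), a ratio of 0.363 (log2 change -1.46, SE 0.27, adjusted p = 0.00538). This call held in all 9 fits with a library left out (adjusted p up to 0.0184) and under all 13 other settings. Pt-ttpy against DMSO was not called (log2 change -0.38, 95% interval -0.96 to 0.19, adjusted p = 0.361).

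JUN differed between the drugs by log2 1.08 (95% interval 0.48 to 1.67), with no overlap of the libraries and Pt-ttpy higher, but its adjusted p was 0.152. It passed the threshold without DMSO 2 and cisplatin 2 together (log2 difference 0.84, adjusted p = 0.0432) and with DESeq2's Wald test (log2 difference 1.07, adjusted p = 0.0106).

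JUNB, a less active partner that can restrain JUN (ENSG00000171223, chr19:12791496-12793315, plus strand), had 69.8, 59.6 and 56.8 CPM with Pt-ttpy, 76.5, 45 and 55.3 CPM with cisplatin and 99.9, 114 and 83.3 CPM with DMSO. All 6 drug libraries lay below all 3 DMSO libraries. JUNB fell with Pt-ttpy (log2 change -0.67, SE 0.18, adjusted p = 0.0343) and with cisplatin (log2 change -0.75, SE 0.18, adjusted p = 0.0156), and the drugs were close (log2 difference 0.08, 95% interval -0.32 to 0.47, adjusted p = 0.937). The Pt-ttpy call was lost when DMSO 1, DMSO 2 or any Pt-ttpy library was left out (adjusted p up to 0.13). With all 9 libraries and a GC correction, the Pt-ttpy call was also lost (log2 change -0.61, adjusted p = 0.0768). The cisplatin call held with that correction (adjusted p = 0.0219). Without DMSO 2 and cisplatin 2 together neither call held: the log2 changes were -0.56 for Pt-ttpy (adjusted p = 0.0748) and -0.47 for cisplatin (adjusted p = 0.154). The cisplatin call also missed the threshold in a fit of the 6 cisplatin and DMSO libraries alone (adjusted p = 0.0505). The JUNB exons overlap HOOK2 on the opposite strand by 259 bases, and the strandedness of the counting is not given in the sources used here.

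JUND, the family member that is expressed most steadily in resting cells (ENSG00000130522, chr19:18279760-18281622, minus strand), had 212, 203 and 170 CPM with Pt-ttpy, 156, 192 and 148 CPM with cisplatin and 151, 215 and 159 CPM with DMSO. The 3 groups overlapped. The log2 change was 0.15 for Pt-ttpy against DMSO (95% interval -0.17 to 0.48, adjusted p = 0.532) and -0.08 for cisplatin against DMSO (95% interval -0.41 to 0.25, adjusted p = 0.731). DMSO 2 and cisplatin 2 were the highest JUND libraries of their groups, and the transcript is 69.7% GC. Without both, JUND was called higher in Pt-ttpy, by log2 0.33 over DMSO (adjusted p = 0.0105) and by 0.36 over cisplatin (adjusted p = 0.035), and with a GC correction it was called lower in cisplatin than in DMSO (log2 change -0.26, adjusted p = 0.0191) and higher in Pt-ttpy than in cisplatin (log2 difference 0.43, adjusted p = 0.0118).

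Per kb of exon, JUND was the most abundant of the 10 genes in all groups, with mean levels of 105 CPM per kb in Pt-ttpy, 88.7 in cisplatin and 94.0 in DMSO. It made up 74.1 ± 1.59% of the JUN family in Pt-ttpy, 72.5 ± 7.25% in cisplatin and 61.8 ± 3.03% in DMSO (SD, n = 3 each). JUN, in contrast, made up 1.76 ± 0.459% in Pt-ttpy, 0.983 ± 0.332% in cisplatin and 2.19 ± 0.270% in DMSO. The summed JUN family level was 141 ± 15.5 CPM per kb in Pt-ttpy, 122 ± 9.59 in cisplatin and 152 ± 25.9 in DMSO. The cisplatin libraries (111.2 to 128.5) all lay below the DMSO libraries (134.3 to 181.4), and the Pt-ttpy libraries (124.6 to 155.3) overlapped both. These sums were not tested.

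**Figure D3:**
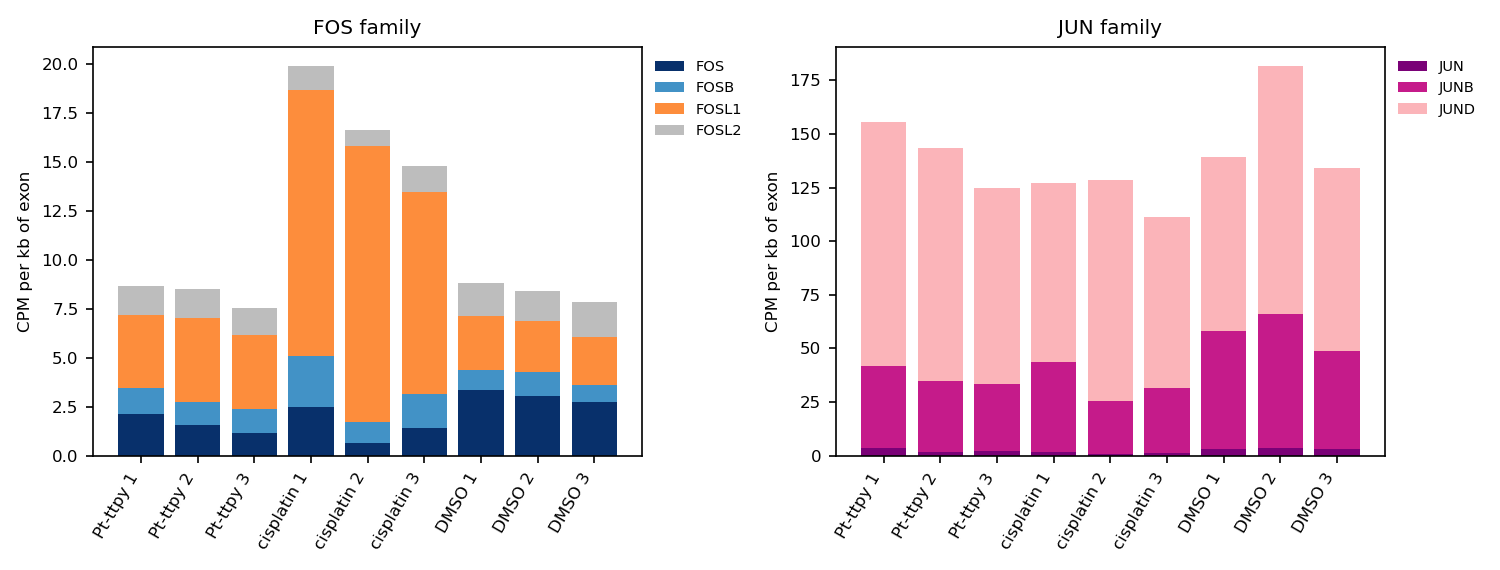
Summed level of the FOS family and of the JUN family in each library (CPM per kb of exon, stacked by gene, bars from 0). The FOSL1 block fills most of the cisplatin bars of the FOS family, and the JUN family bars are mainly JUND and JUNB.

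ATF3, a stress-induced bZIP factor that often acts as a repressor, was scarce in all libraries and was higher with Pt-ttpy. ATF3 (ENSG00000162772, chr1:212565334-212620777, plus strand) had 2.28, 1.86 and 1.99 CPM with Pt-ttpy, 0.580, 1.23 and 0.593 CPM with cisplatin and 1.10, 0.515 and 0.499 CPM with DMSO, which rest on 66 to 74 counts in the Pt-ttpy libraries, 18 to 52 in cisplatin and 18 to 39 in DMSO. All Pt-ttpy libraries lay above all others, and cisplatin and DMSO overlapped. ATF3 rose 2.89-fold with Pt-ttpy against DMSO (log2 change 1.53, SE 0.45, adjusted p = 0.0445) and was not called with cisplatin (log2 change 0.20, 95% interval -0.78 to 1.18, adjusted p = 0.787). The Pt-ttpy call was lost when DMSO 2, DMSO 3, cisplatin 1, cisplatin 3 or any Pt-ttpy library was left out (adjusted p from 0.0502 to 0.136), with a log2 change of 1.34 to 1.60 in those fits. The Pt-ttpy to cisplatin difference of log2 1.33 (95% interval 0.37 to 2.30, adjusted p = 0.375) did not pass with all 9 libraries, and did without DMSO 2 and cisplatin 2 together (log2 difference 1.79, adjusted p = 0.0312).

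MAFF, a small MAF protein that lacks a transactivation domain (ENSG00000185022, chr22:38200767-38216511, plus strand), had 8.28, 8.35 and 6.67 CPM with Pt-ttpy, 12.7, 7.60 and 10.5 CPM with cisplatin and 9.74, 13.2 and 10.3 CPM with DMSO. The Pt-ttpy libraries all lay below the DMSO libraries, and the cisplatin libraries spanned both. Neither change was called, with log2 -0.51 for Pt-ttpy against DMSO (SE 0.21, adjusted p = 0.126) and -0.12 for cisplatin against DMSO (SE 0.21, adjusted p = 0.729). The Pt-ttpy to cisplatin difference was -0.40 (adjusted p = 0.68), and -0.58 (adjusted p = 0.0448) without DMSO 2 and cisplatin 2 together.

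EGR1, a zinc-finger factor and the one gene of the 10 that is no bZIP protein, had the lowest precision. EGR1 (ENSG00000120738, chr5:138465490-138469315, plus strand) had 106, 40.1 and 30.4 CPM with Pt-ttpy, 167, 28.4 and 48.1 CPM with cisplatin and 299, 165 and 110 CPM with DMSO. The Pt-ttpy libraries all lay below the DMSO libraries, by a narrow gap, while cisplatin 1 lay inside the DMSO range. Replicate 1 was the highest library of every group for EGR1 and for FOS. The log2 change was -1.70 for Pt-ttpy against DMSO (95% interval -3.68 to 0.28, adjusted p = 0.226) and -1.24 for cisplatin against DMSO (95% interval -3.19 to 0.71, adjusted p = 0.332). Both intervals reach from a large decrease to an increase.

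Counted together, of the 10 genes 2 rose with Pt-ttpy against DMSO (FOSL1 and ATF3) and 1 fell (JUNB), where 5.59% of all tested genes rose, 6.45% fell and 12.0% were called in all. With cisplatin against DMSO 1 rose (FOSL1) and 3 fell (JUN, JUNB and FOSL2), where 10.7% of all genes rose, 9.78% fell and 20.5% were called in all. In Pt-ttpy against cisplatin, 0 of the 10 were called higher and 1 lower (FOSL1), where 0.0578% of all genes were higher, 0.456% lower and 0.514% called in all. Groups did not overlap for 2 genes above and 5 below DMSO with Pt-ttpy (20.3% and 20.6% of all genes), for 1 above and 4 below with cisplatin (18.6% and 19.4%), and for 3 above and 1 below in Pt-ttpy against cisplatin (10.5% and 10.1%). The median log2 change of the 10 was -0.30 with Pt-ttpy (0.03 over all genes), -0.36 with cisplatin (0.01) and 0.09 between the drugs (0.00). The comparisons with DMSO share the same 3 DMSO libraries, so they are not independent of each other. Without DMSO 2 and cisplatin 2, 3 of the 10 rose and 1 fell with Pt-ttpy, where 15.8% of all genes rose, 17.4% fell and 33.2% were called. In the same 7 libraries 2 rose and 2 fell with cisplatin, where 13.9% rose, 16.4% fell and 30.2% were called. Between the drugs 3 of the 10 were then higher and 3 lower with Pt-ttpy, where 2.37% were higher, 2.83% lower and 5.2% called. In Pt-ttpy against DMSO, 870 genes of the whole table were higher and 1004 lower with all 9 libraries, and with Pt-ttpy 1, Pt-ttpy 2 or Pt-ttpy 3 left out in turn 199, 143 and 212 were higher and 68, 42 and 87 lower.

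**Figure D4:**
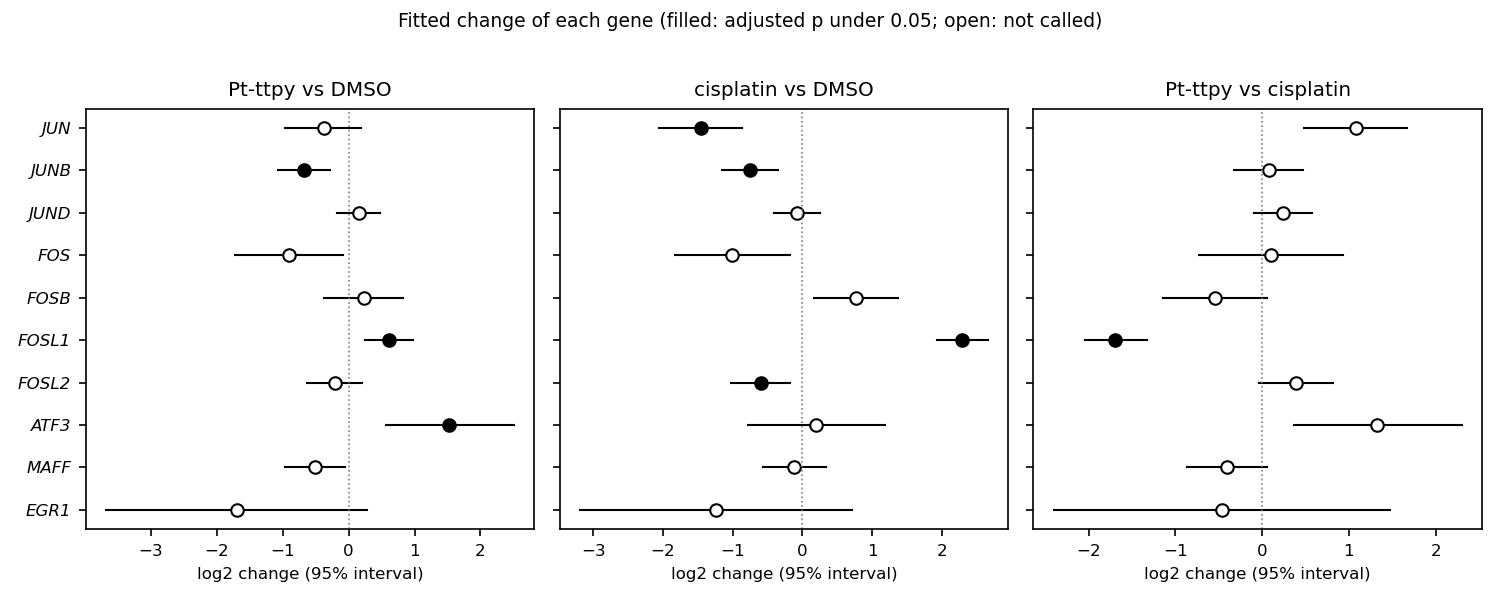
Fitted log2 change of each gene (point) with its 95% interval (line) for Pt-ttpy against DMSO, cisplatin against DMSO and Pt-ttpy against cisplatin, filled where adjusted p was under 0.05. FOSL1 is the one filled point between the drugs, at -1.69, and the EGR1 lines are the widest.

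Upstream of these genes lie the MAP kinase cascades, whose genes were called about as often as genes in general. Of 30 MAP kinases and SRF or ternary complex factors, 3 rose and 1 fell with Pt-ttpy (13.3% called, against 12.0% of all genes), and 5 rose and 2 fell with cisplatin (23.3% called, against 20.5%), with medians of 0.00 and -0.07. MAP2K6, which activates the stress kinase p38, had 146, 156 and 157 CPM with Pt-ttpy, 107, 115 and 126 with cisplatin and 75.6, 44.0 and 69.1 with DMSO. MAP2K6 rose with Pt-ttpy (log2 change 1.28, SE 0.17, adjusted p = 0.00287) and with cisplatin (log2 change 0.88, SE 0.17, adjusted p = 0.00583), and both calls held in all 9 fits with a library left out. All drug libraries lay above all DMSO libraries for this gene. MAPK10, the JNK isoform best known from neurons, rose with Pt-ttpy (log2 change 1.95, adjusted p = 0.0167) and with cisplatin (log2 change 2.52, adjusted p = 0.00322), at no more than 3.65 CPM in any library. Its exons overlap ARHGAP24 and PTPN13 on the opposite strand, and its Pt-ttpy call ended when any Pt-ttpy library was left out (adjusted p up to 0.0649). ELK3, a ternary complex factor that can repress FOS, rose by log2 0.47 with Pt-ttpy (adjusted p = 0.0388) and 0.52 with cisplatin (adjusted p = 0.0177). The Pt-ttpy call of ELK3 ended when DMSO 3, cisplatin 1, cisplatin 3 or any Pt-ttpy library was left out (adjusted p up to 0.13). RPS6KA5, the histone kinase MSK1, rose with cisplatin (log2 change 0.93, adjusted p = 0.0144). MAP2K3, a further p38 activator, fell with Pt-ttpy (log2 change -0.52, adjusted p = 0.028). That call ended when DMSO 2 or any Pt-ttpy library was left out (adjusted p up to 0.105). MAP2K3 also fell with cisplatin (log2 change -0.46, adjusted p = 0.0322), in 2 of 9 fits with a library left out, those without DMSO 1 and without cisplatin 1.

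Of 27 other immediate-early genes tested, 1 rose and 5 fell with Pt-ttpy (median -0.47), where 5.59% of all genes rose and 6.45% fell. With cisplatin 2 rose and 5 fell (median -0.40), where 10.7% of all genes rose and 9.78% fell. BTG2, an antiproliferative gene that is also a p53 target, had 32.5, 38.3 and 33.3 CPM with Pt-ttpy, 89.9, 96.5 and 80.9 with cisplatin and 21.2, 22.6 and 23.3 with DMSO. The 3 groups did not overlap, in the same order of levels as for FOSL1. BTG2 rose with cisplatin (log2 change 1.99, SE 0.12, adjusted p = 4.63e-06) and with Pt-ttpy (log2 change 0.63, SE 0.11, adjusted p = 0.0101), and was lower with Pt-ttpy than with cisplatin (log2 difference -1.36, SE 0.11, adjusted p = 0.000298). The Pt-ttpy against DMSO call of BTG2 ended with Pt-ttpy 2 left out (adjusted p = 0.0639).

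Among the genes that fell, KLF2, a Krüppel-like factor (log2 change -1.16, adjusted p = 0.00847), and NR4A3, an orphan nuclear receptor (log2 change -2.14, adjusted p = 0.0113), were lower with cisplatin in all fits with a library left out. With Pt-ttpy, the matrix protein gene CCN1 (log2 change -1.13, adjusted p = 0.022), ARC (log2 change -1.14, adjusted p = 0.0232) and the small GTPase gene RHOB (log2 change -0.47, adjusted p = 0.0227) fell. These 3 calls ended when any Pt-ttpy library was left out, those of CCN1 and ARC also without DMSO 2 and that of CCN1 without DMSO 3 (adjusted p up to 0.0991). NR4A3 was also called lower with Pt-ttpy (log2 change -1.55, adjusted p = 0.0498), in 2 of 9 fits with a library left out, those without cisplatin 2 and without cisplatin 3. RHOB was also called lower with cisplatin (log2 change -0.37, adjusted p = 0.0369), in 1 of 9 such fits, the one without DMSO 3. NR4A1, a further orphan receptor, fell with cisplatin (log2 change -0.54, adjusted p = 0.0243), a call lost without cisplatin 2 or cisplatin 3 (adjusted p up to 0.0591). The 5 and 5 called lower are counts near the edge, since they ranged from 0 to 12 with Pt-ttpy and from 2 to 9 with cisplatin when a library was left out.

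Of 17 feedback genes of the MAP kinase pathway tested, 1 rose and 3 fell with Pt-ttpy (median -0.23), where 5.59% of all genes rose and 6.45% fell. With cisplatin 1 rose and 6 fell (median -0.35), where 10.7% of all genes rose and 9.78% fell. With a library left out, 0 to 6 fell with Pt-ttpy and 1 to 6 with cisplatin. NAB2, a corepressor that binds EGR1 and is an EGR1 target, had 145, 142 and 120 CPM with Pt-ttpy, 158, 112 and 141 with cisplatin and 198, 277 and 197 with DMSO. All drug libraries lay below all DMSO libraries. NAB2 fell with Pt-ttpy (log2 change -0.73, SE 0.16, adjusted p = 0.0176) and with cisplatin (log2 change -0.71, SE 0.16, adjusted p = 0.0114), where the Pt-ttpy call ended when any Pt-ttpy library was left out (adjusted p up to 0.0781). ETV4, an ETS factor induced by ERK, fell by log2 0.52 with each drug (adjusted p = 0.0278 for Pt-ttpy and 0.0186 for cisplatin), a call lost for Pt-ttpy with any Pt-ttpy library left out (adjusted p up to 0.114) and for cisplatin without cisplatin 2 (adjusted p = 0.0561). PHLDA1 fell with Pt-ttpy (log2 change -1.36, adjusted p = 0.0325), a call that ended when DMSO 1, DMSO 2 or any Pt-ttpy library was left out (adjusted p up to 0.127). SPRED3, a relative of the RAS inhibitors SPRED1 and SPRED2, rose with cisplatin (log2 change 0.93, adjusted p = 0.0152, lost without DMSO 3 at 0.0569) and with Pt-ttpy (log2 change 0.76, adjusted p = 0.0466). That Pt-ttpy call remained in 2 of 9 fits, those without DMSO 2 and without cisplatin 2.

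Among other bZIP factors, which can pair with AP-1 or MAF proteins, 2 of 19 tested rose and 1 fell with Pt-ttpy (median 0.32; 15.8% called, against 12.0% of all genes), and 5 rose and 1 fell with cisplatin (median 0.14; 31.6% called, against 20.5%). With a library left out, 1 to 5 rose with Pt-ttpy and 3 to 5 with cisplatin. ATF5 fell with Pt-ttpy (log2 change -0.84, adjusted p = 0.00589) and with cisplatin (log2 change -0.77, adjusted p = 0.00367), and MAF, a large MAF protein with a transactivation domain, rose with Pt-ttpy (log2 change 0.99, adjusted p = 0.00635) and with cisplatin (log2 change 0.82, adjusted p = 0.00605). These 4 calls held in all 9 fits with a library left out. The ATF5 exons overlap NUP62 on the opposite strand by 626 bases. NFE2, known from blood cells as a partner of small MAF proteins, rose with cisplatin (log2 change 1.83, adjusted p = 0.00207) and with Pt-ttpy (log2 change 0.99, adjusted p = 0.0391). The Pt-ttpy call of NFE2 ended when DMSO 1, DMSO 3, cisplatin 3 or any Pt-ttpy library was left out (adjusted p up to 0.131). MAFA rose with cisplatin (log2 change 0.67, adjusted p = 0.00816).

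Described AP-1 target genes moved in both directions. Of 30 listed, 19 were expressed highly enough to be tested, and of these 1 rose and 3 fell with Pt-ttpy (median 0.19; 21.1% called, against 12.0% of all genes) and 4 rose and 2 fell with cisplatin (median 0.21; 31.6% called, against 20.5%). S100A2, an epithelial calcium-binding protein gene, rose with cisplatin by log2 2.11 (adjusted p = 0.00884), at 2.94 to 3.58 CPM in cisplatin and 0.675 to 0.824 CPM in DMSO. PLAU, the urokinase-type plasminogen activator, rose with cisplatin (log2 change 0.69, adjusted p = 0.0216), a call lost without DMSO 1, cisplatin 1 or cisplatin 2 (adjusted p up to 0.0661), and its exons overlap C10orf55 on the opposite strand by 916 bases.

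With Pt-ttpy, the matrix protease gene MMP10 fell (log2 change -1.0, adjusted p = 0.0154), as did TIMP1, an inhibitor of such proteases (log2 change -0.79, adjusted p = 0.0233), and TGFB1 (log2 change -0.48, adjusted p = 0.0304). These 3 calls ended when any Pt-ttpy library was left out, and that of TIMP1 also without DMSO 2 (adjusted p up to 0.123). TIMP1 and TGFB1 were also called lower with cisplatin, by log2 changes of -0.58 (adjusted p = 0.0488) and -0.43 (adjusted p = 0.0321), each in 2 of 9 fits with a library left out, those without DMSO 1 and cisplatin 1 for TIMP1 and those without DMSO 1 and DMSO 2 for TGFB1. DKK1, a WNT antagonist, rose by log2 0.58 with Pt-ttpy (adjusted p = 0.023) and with cisplatin (adjusted p = 0.0144). The DKK1 calls ended for Pt-ttpy when DMSO 3 or any Pt-ttpy library was left out (adjusted p up to 0.0921) and for cisplatin without DMSO 3 (adjusted p = 0.0527).

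ATF3 is also a target of the integrated stress response, in which ATF4 protein accumulates when translation is slowed, and the other genes of that response moved in both directions. Of 15 tested, 2 rose and 1 fell with Pt-ttpy (median -0.04; 3 of 15 called, against 12.0% of all genes) and 2 rose and 2 fell with cisplatin (median -0.14; 26.7% called, against 20.5%). DDIT4, an inhibitor of mTORC1 signalling, had 144, 155 and 180 CPM with Pt-ttpy, 94.8, 258 and 152 with cisplatin and 44.2, 46.8 and 69.6 with DMSO. All drug libraries lay above all DMSO libraries. DDIT4 rose with Pt-ttpy (log2 change 1.58, adjusted p = 0.0154, lost without DMSO 2, Pt-ttpy 2 or Pt-ttpy 3 at up to 0.0577) and with cisplatin (log2 change 1.65, adjusted p = 0.00669, lost without DMSO 2 and cisplatin 2 together at 0.0856). HSPA5, the endoplasmic reticulum chaperone BiP, fell by log2 0.37 with Pt-ttpy (adjusted p = 0.0179, lost with any Pt-ttpy library left out at up to 0.0949) and by 0.39 with cisplatin (adjusted p = 0.00792). With cisplatin, TRIB3, a pseudokinase induced by ATF4, fell (log2 change -0.78, adjusted p = 0.00538) and SESN2, a stress-induced sestrin, rose (log2 change 0.93, adjusted p = 0.00164). VLDLR, a lipoprotein receptor, rose with Pt-ttpy (log2 change 1.40, adjusted p = 0.0327), a call that ended when any DMSO or Pt-ttpy library was left out. Of the list genes named here, DDIT4 and TIMP1 with cisplatin (adjusted p = 0.0856 and 0.105) were those whose calls ended without DMSO 2 and cisplatin 2 together. Some cisplatin calls of list genes ended in a fit of the 6 cisplatin and DMSO libraries alone. Adjusted p was then 0.0578 for ELK3, 0.0537 for HSPA5, 0.0547 for DKK1 and 0.0714 for ETV4. It was 0.0778 for NR4A1, 0.0576 for PLAU, 0.0505 for SPRED3 and 0.1 for SPRED2.

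Between the drugs these lists held few calls. In Pt-ttpy against cisplatin, BTG2 was called, and it was lower with Pt-ttpy as FOSL1 was. The genes with the smallest adjusted p in 4 lists without a call had log2 differences of 0.40 for MAP2K6 (adjusted p = 0.542), 0.30 for the phosphatase gene DUSP4 (adjusted p = 0.649), -0.84 for NFE2 (adjusted p = 0.344) and -0.51 for SESN2 (adjusted p = 0.194). Without DMSO 2 and cisplatin 2 together MAP2K6 was called higher with Pt-ttpy than with cisplatin (log2 difference 0.40, adjusted p = 0.00184) and SESN2 lower (log2 difference -0.41, adjusted p = 0.0149). The exons of RPS6KA5, ELK3, NR4A1, PHLDA1, ETV4, NAB2, TGFB1, DKK1, DDIT4 and VLDLR also overlap annotated genes on the opposite strand, and reads of the partners cannot be told apart here.

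**Figure D5:**
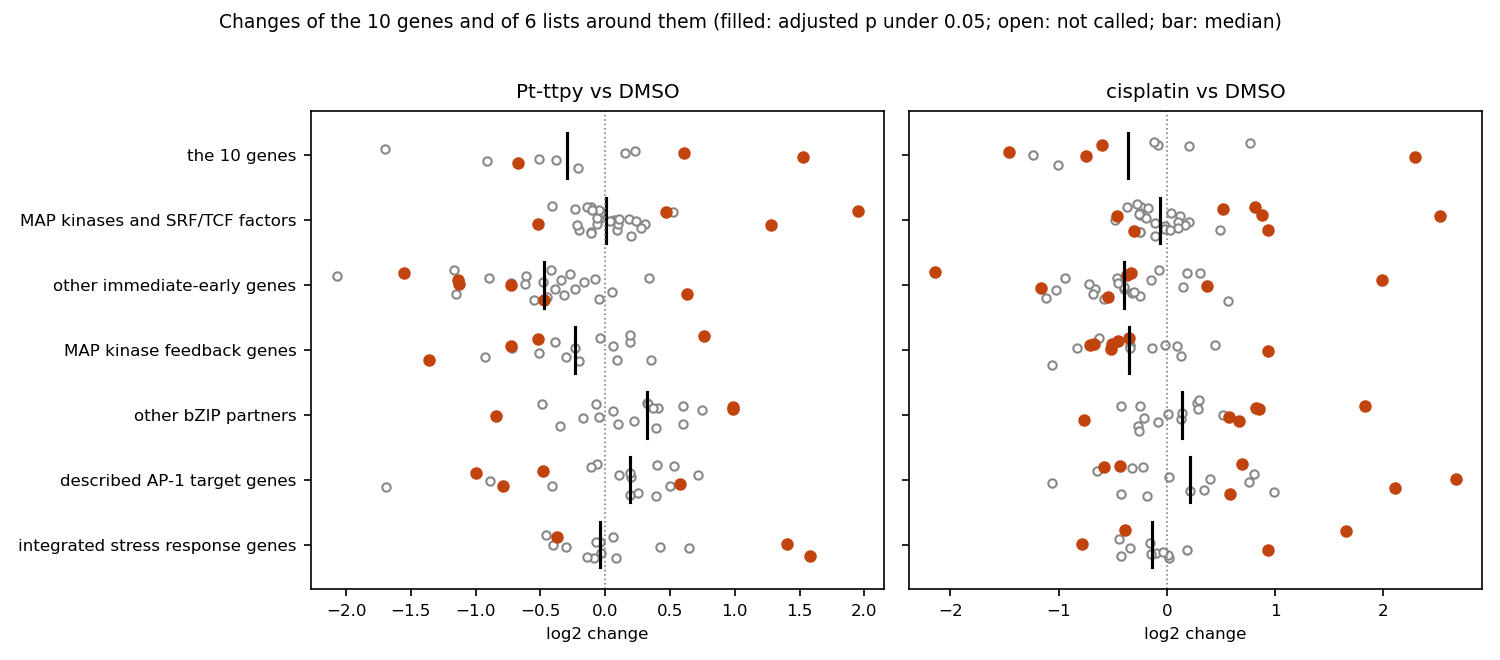
Log2 changes against DMSO of the 10 genes and of the genes in 6 lists around them, with Pt-ttpy in the left panel and cisplatin in the right (filled, adjusted p under 0.05; bar, median). The other immediate-early genes have medians of -0.47 and -0.40, with BTG2 as the highest filled point at 0.63 and 1.99.

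The genes whose levels ran most like those of each member were found by Pearson correlation of log2 CPM over the 9 libraries, among 10625 genes with a mean of at least 5 CPM. The 9 points fall into 3 treatment groups and share library effects, so the coefficients describe likeness only. FOSL1 ran with CDKN1A (r = 0.995), the cyclin-dependent kinase inhibitor p21, and with FAM210B (r = 0.994). JUNB ran with COA3 (r = 0.986) and ZFP36L2 (r = 0.977), FOS with SKIDA1 (r = 0.982) and MRPS18C (r = 0.978), and FOSL2 with TACC1 (r = 0.981) and LONRF1 (r = 0.980). JUN ran with PSMC3IP (r = 0.966) and SIK2 (r = 0.964), and EGR1 with TIMM8B (r = 0.965) and HES1 (r = 0.960), the last of which is also in the list of other immediate-early genes. The remaining members had MAFF with GLA (r = 0.960) and AKAP8 (r = 0.950), FOSB with LBX1 (r = 0.952) and ERCC1 (r = 0.924), JUND with VEGFB (r = 0.949) and PHF2 (r = 0.938), and ATF3 with GPC6 (r = 0.943) and PPM1L (r = 0.940).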

How the data were processed

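The authors deposited 1 table of raw counts, whole numbers per gene for each of the 9 libraries, without normalization. The genome build was GRCh38, per the submitters' processing notes. Aligner, counter and strandedness: not given in the sources used here. Libraries were made from total RNA with a mRNA kit, per the labels' protocols.

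The counts were fitted in R 4.3.3 with edgeR 4.0.16, after its filterByExpr filter at a minimum count of 10 and with TMM factors, by robust quasi-likelihood with 1 mean per group over all 9 libraries. A gene was called where its p, adjusted by Benjamini-Hochberg over the 15558 tested genes, was under 0.05. Intervals are 95%. CPM are TMM-scaled, and CPM per kb divides them by GENCODE 29 exon length. The unannotated newGene loci, 1.56% to 2.18% of counts, were kept. The steps were tested on simulated counts.

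The 10 genes and all lists were chosen with earlier results of these data known. The list genes named are, per list and comparison, up to 4 called genes with the smallest adjusted p (with none called, the 1 with the smallest). A gene that meets this rule is not reported here. The 2 genes most like each of the 10 by correlation (pseudocount 0.5 CPM) were named too. Alternatives were DESeq2 1.42.0 (size factors, Wald test), limma-voom (limma 3.58.1), upper-quartile factors, library totals, other low-count filters, non-robust estimation, fits on the 6 libraries of a comparison, a replicate block, a GC correction (lowess span 0.3, GC known for 86% of genes), a fit without DMSO 2 and cisplatin 2, and leaving out each library. The 13 other settings mentioned in the report are these without the left-out libraries and without other p thresholds.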

Additional observations from a re-analysis of the deposited data

How the results depend on the processing

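Of the 10 genes, 2 were called higher in Pt-ttpy than in DMSO, and this number was 1 with limma-voom, 0 at an adjusted p under 0.01 and 0 to 2 with a library left out. The 1 called lower became 2 with the 6 libraries of the comparison alone, 0 with a GC correction, 0 at an adjusted p under 0.01 and 0 to 2 with a library left out. For cisplatin against DMSO, the 1 called higher became 2 with library totals, with DESeq2's Wald test, without DMSO 2 and cisplatin 2 together, with a GC correction and at an adjusted p under 0.1, and was 1 to 2 with a library left out. The 3 called lower became 1 with the 6 libraries alone and 1 at an adjusted p under 0.01, and were 2 to 3 with a library left out. For Pt-ttpy against cisplatin, the 0 called higher became 1 with DESeq2's Wald test, 3 without DMSO 2 and cisplatin 2 together and 1 with a GC correction, and stayed 0 with any library left out. In this comparison 1254 genes had an unadjusted p under 0.05. The 1 called lower became 3 without DMSO 2 and cisplatin 2 together and stayed 1 with any library left out. The causes of these moves were not tested.

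Whether the replicate numbers pair the samples was not settled. Same-numbered libraries deviated together with correlations of -0.04 to 0.22. Between DMSO and cisplatin these were 0.10, 0.22 and 0.08, where differently numbered libraries had -0.14 to 0.06. Same-numbered correlations with Pt-ttpy libraries were -0.04 to 0.04. With a replicate block, 3 genes were called lower in Pt-ttpy than in DMSO, 5 in cisplatin than in DMSO, and 1 higher in Pt-ttpy than in cisplatin. With the block and a GC correction together, these numbers were 2, 6 and 2, and 2 genes were called higher with cisplatin. Under the block EGR1 had log2 changes of -1.82 with Pt-ttpy (adjusted p = 0.0149) and -1.48 with cisplatin (adjusted p = 0.0186), FOS had -0.96 (adjusted p = 0.0429) and -1.13 (adjusted p = 0.0168), and JUN differed by 1.08 between the drugs (adjusted p = 0.0488).

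Signs turned only for changes that were not called. For JUNB the Pt-ttpy to cisplatin difference was -0.087 without DMSO 2 and cisplatin 2 together, and from -0.087 to 0.308 with a library left out (-0.016 without Pt-ttpy 1). For FOS it was -0.264 without both and from -0.263 to 0.659 with a library left out, with -0.150 among these, and for EGR1 from -1.20 to 0.621. For cisplatin against DMSO, JUND was 0.003 with upper-quartile factors, 0.016 with library totals and from -0.205 to 0.094 with a library left out. ATF3 was -0.432 without both and from -0.259 to 0.666 with a library left out. MAFF was 0.208 without both and from -0.298 to 0.06 with a library left out, with 0.03 among these.

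The numbers called in the lists were also loose over the same alternatives. With Pt-ttpy, 1 to 7 MAP kinases and SRF factors rose and 0 to 6 fell, 0 to 2 and 0 to 12 other immediate-early genes, 0 to 2 and 0 to 7 feedback genes, 1 to 8 and 1 to 2 other bZIP genes, 0 to 5 and 0 to 4 AP-1 targets, and 0 to 4 and 0 to 2 stress response genes. With cisplatin the ranges were 3 to 7 and 0 to 7, 1 to 3 and 2 to 9, 0 to 2 and 1 to 7, 3 to 7 and 1 to 4, 2 to 5 and 0 to 2, and 1 to 2 and 1 to 8.

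Over all genes, 870 were higher and 1004 lower with Pt-ttpy, and 1669 and 1521 with cisplatin. Upper-quartile factors gave 1050 and 666, and 1940 and 913, library totals gave 1005 and 773, and 1995 and 943, and the 6 libraries of the cisplatin comparison alone gave 918 and 395. ATF3 rests on 18 to 74 counts a library, with a coefficient of variation of 10.5% in Pt-ttpy, 46.5% in cisplatin and 48.4% in DMSO, and the shares of counting error and of other spread between libraries were not tested.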
